A study of Mus musculus with 18 samples.

Results

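The genes described here are 10 feedback genes and outputs of the ERK pathway: the MAPK phosphatases *Dusp1*, *Dusp4*, *Dusp5* and *Dusp6*, the inhibitors *Spry1*, *Spry2*, *Spry4* and *Spred1*, and the ETS transcription factors *Etv4* and *Etv5*. They were taken by symbol from a table of 55450 genes, and all 10 were found, each on 1 row. RNA-Seq was performed on ED1SQ4 cells, an established murine lung cancer line derived from the lung cancers of transgenic mice that overexpress cyclin E. Cells received vehicle or 0.5 µM CYC065 (fadraciclib), an inhibitor of the cell cycle kinase CDK2 and the transcription kinase CDK9, for 72 hours. From each treatment, 3 populations were sequenced: unsorted cells, and cells sorted after staining with a DNA dye as diploid (2N) or polyploid (4N). The study compared drug-treated with vehicle-treated cells, and 4N with 2N cells, to profile the polyploid cells that persist under CDK2 inhibition. All conditions share the same line and its transgenic origin, and no second line or drug was sequenced.

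The pathway runs from growth factors and receptor tyrosine kinases through RAS, RAF and MEK to ERK. Active ERK induces transcription of its own inhibitors. DUSP phosphatases remove the activating phosphates of MAP kinases, and Sprouty and SPRED proteins act upstream, at the level of receptors, RAS and RAF. ETV4 and ETV5 are transcriptional activators induced downstream of FGF and ERK signaling, including in lung development. Transcript levels of these genes are often read together as an index of ERK output. No phosphorylated ERK or protein was measured in the data described here.

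The 3 replicates of a condition carry 1 library number in their labels, and over genes with whole counts they differed by no more than sampling noise (chi-square per degree of freedom 0.991 to 1.02). Over genes with fractional counts the statistic was 4.35 to 7.60, and over all genes 1.62 to 2.24. For the 10 genes it was 0.457 to 1.05, with 0.872 for *Etv5*. The replicates were summed and counted as 1 library per condition, so n = 1 throughout. No P value is given, and each interval covers counting error of the reads only. The 6 summed libraries held 54750168 to 62795451 counts. Over the 60 levels of the 10 genes, the coefficient of variation among the 3 replicates had a median of 2.30% and reached 8.75%. Spread between cultures was not measured, so no difference below can be set against it. Levels are counts per 1000000 library counts (CPM) scaled by the trimmed mean of M values (TMM). A ratio beyond 2-fold, a log2 ratio past 1 in either direction, is called higher or lower. In unsorted and sorted samples alike, fewer cells expressing a gene and less RNA per cell cannot be told apart. Markers of the labelled tissue were at or near 0: 6 epithelial markers summed to 0.429 to 1.32 CPM and 4 lung alveolar and airway markers to 0 to 0.075 CPM, while 5 mesenchymal markers summed to 10389 to 17434 CPM. Of 4 immune markers, 3 stood at no more than 3 counts in every library, and the remainder of that list, *Cd68*, accounted for sums of 3.37 to 24.5 CPM. The summed level of 4 endothelial markers did not exceed 1.87 CPM.

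The promoter sequences of the 3 genes whose levels varied most are shown first, so that the windows before their starts can be compared. They are 250 bases that end just before the transcript start, from RefSeq on GRCm38.p6, written in the direction of transcription. These starts can differ from the GENCODE M21 gene bounds given below. The *Dusp1* window lies inside the bounds of its gene, and the *Dusp5* window runs past the first base of its gene. The starts behind the *Spred1* window and an *Etv5* window were not found in GENCODE M21 transcripts. Windows of 7 of the 10 genes were searched, and none of *Dusp4*, *Spry4* or *Etv4*. Capitals mark motifs found by a search of both strands for the cAMP response element TGACGTCA, the AP-1 site TGANTCA, the ETS site CCGGAAG, the TATA motif TATAAA and the CArG box, which serum response factor binds.
Spry1, chr3:37639697-37639946, plus strand: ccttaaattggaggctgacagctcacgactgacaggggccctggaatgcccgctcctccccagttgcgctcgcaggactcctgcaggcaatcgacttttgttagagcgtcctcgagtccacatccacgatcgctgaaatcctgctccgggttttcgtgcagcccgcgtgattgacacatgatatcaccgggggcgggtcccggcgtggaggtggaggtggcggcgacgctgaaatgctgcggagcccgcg
Dusp1, chr17:26508473-26508722, minus strand: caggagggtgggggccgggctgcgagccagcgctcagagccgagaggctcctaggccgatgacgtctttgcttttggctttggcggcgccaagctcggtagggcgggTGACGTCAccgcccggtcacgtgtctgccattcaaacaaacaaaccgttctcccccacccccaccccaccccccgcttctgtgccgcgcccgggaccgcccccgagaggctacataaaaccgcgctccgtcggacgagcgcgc
Dusp5, chr19:53528895-53529144, plus strand: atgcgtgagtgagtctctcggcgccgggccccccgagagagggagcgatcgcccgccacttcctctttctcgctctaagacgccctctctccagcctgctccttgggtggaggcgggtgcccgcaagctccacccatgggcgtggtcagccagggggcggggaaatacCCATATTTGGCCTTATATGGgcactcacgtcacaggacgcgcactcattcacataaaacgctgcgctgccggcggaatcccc

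The *Dusp1* window held 1 cAMP response element, whose first base lay at -143 from the start. The *Dusp5* window held 2 adjoining CArG boxes, at -82 and -72. In the 32851 promoter windows of this length, 1.55% held the cAMP response element and 1.47% a CArG box. The *Spry1* window held none of the motifs searched, and neither did the windows of *Dusp6*, *Spry2*, *Spred1* and *Etv5*. AP-1, ETS and TATA motifs were present in 6.75%, 6.91% and 12.4% of all windows. A match of letters does not show that a factor binds there, and a window without a match says only that these letters are not in it. Of the 3 sequences, the GC content was 62.4% for *Spry1*, 68.4% for *Dusp1* and 64% for *Dusp5*.

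CYC065 treatment split the group. *Spry1* and *Dusp1* were more than 2-fold higher in CYC065-treated than in vehicle-treated cells in all 3 populations, by 7.83-fold and 4.71-fold in unsorted cells. *Dusp4*, *Dusp6* and *Spry2* were also higher in each population, by less than 2-fold, while *Dusp5* and *Etv4* were lower in each. *Etv5* was lower in each by a smaller ratio, with log2 ratios of -0.27 in unsorted, -0.09 in 2N and -0.25 in 4N cells. *Spry4* and *Spred1* lay near their vehicle levels and differed in sign among populations. In unsorted cells, 2 of the 10 genes were beyond 2-fold higher and 0 beyond 2-fold lower, where 12.6% of all 14082 genes past the count filter were higher and 12.6% lower. In 2N cells the counts were 2 higher and 0 lower, against 16.2% and 11.4% of all genes. In 4N cells they were 2 higher and 1 lower, against 15.5% and 10.1% of all genes. With 10 genes, these shares lie near the background of a treatment that moved many genes. The median log2 ratio of the 10 genes was 0.32 in unsorted, 0.40 in 2N and 0.29 in 4N cells, beside medians of all genes of -0.01, 0.01 and 0.03. The summed level of 6 mitotic genes was lower with CYC065, at 306 against 917 CPM in unsorted, 272 against 726 in 2N and 688 against 1219 in 4N cells, and 6, 6 and 2 of them lay beyond 2-fold lower. Their part in the drug comparison of the 10 genes was not tested.

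**Figure D1:**
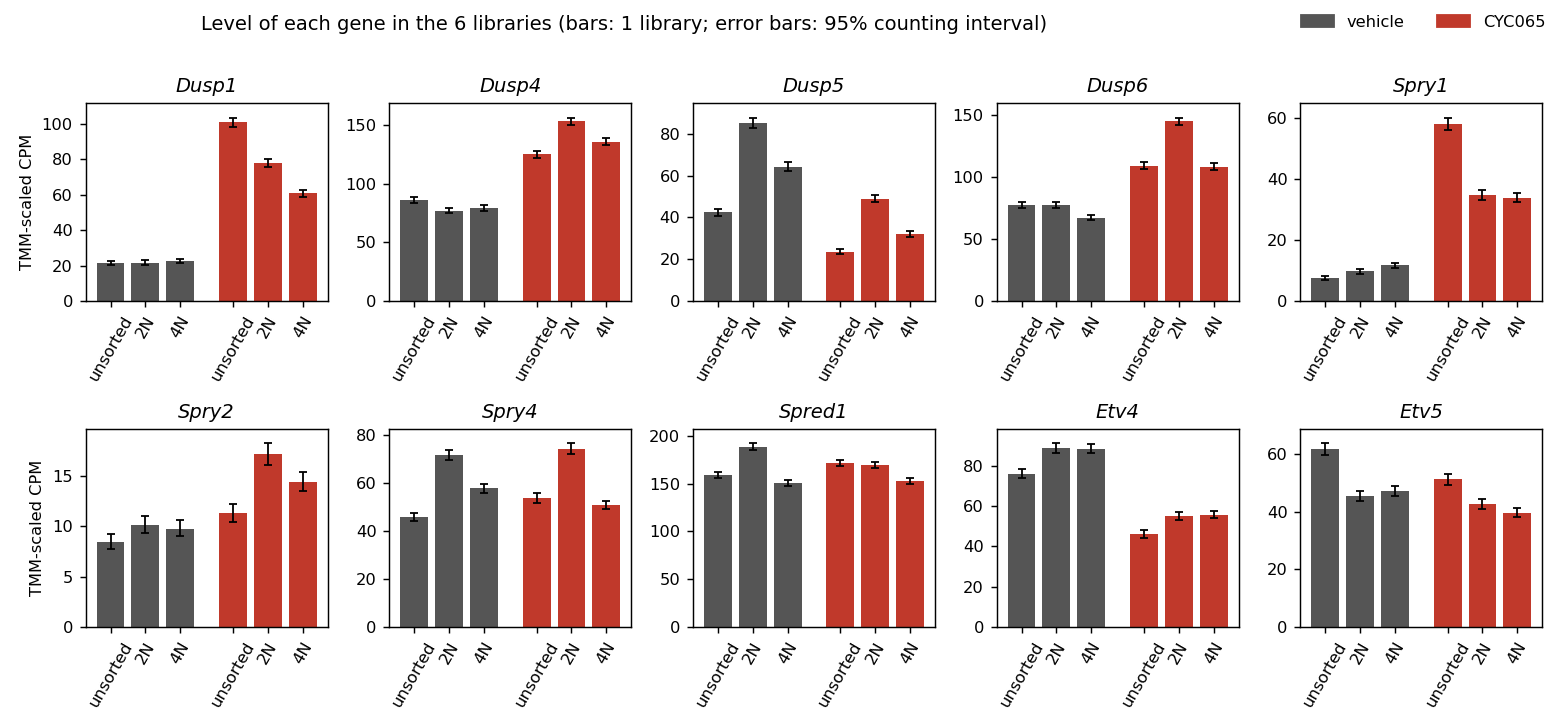
TMM-scaled CPM of each gene (vertical axes from 0) in the 6 libraries, with vehicle in gray and CYC065 in red. Each bar is 1 library and each error bar a 95% counting interval. The *Dusp1* and *Spry1* bars of all 3 CYC065 libraries stand above every vehicle bar, the *Etv4* bars stand below, and the *Spred1* bars lie between 151 and 189 CPM in all 6.

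The 3 CYC065 libraries lay above all 3 vehicle libraries for 5 genes, *Dusp1*, *Dusp4*, *Dusp6*, *Spry1* and *Spry2*. Of all genes, 29.7% did so. The 3 CYC065 libraries lay below all 3 vehicle libraries for 1 gene, *Etv4*, and for 28.8% of all genes. The order of the levels therefore separates the treatments for 6 of the 10 genes. With both directions counted, that share lies near the background of all genes. For *Spry2* the separation is within counting error, since its unsorted CYC065 level overlaps its 2N vehicle level. A gene's spread over the 6 libraries was largest for *Spry1*, with a log2 range of 2.97, and for *Dusp1*, with 2.24. Of 10816 genes with at least 100 counts in every library, 98.0% had a smaller range than *Spry1* and 94.4% a smaller range than *Dusp1*. *Dusp5* followed with a range of 1.86, and *Spred1* had the smallest, 0.32, below which only 7.78% of these genes fell.

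Among the phosphatases, *Dusp1* encodes a nuclear enzyme that acts on p38 and JNK as well as ERK and is induced early by growth factors and by stress. Its gene lies on chromosome 17 (mm10, GENCODE M21), from base 26505590 to 26562128 on the minus strand. In that annotation it overlaps 4 other genes, 2 of them on the same strand, so its reads may not all be its own. In vehicle-treated cells it stood at 21.4 CPM in unsorted, 21.6 in 2N and 22.7 in 4N cells, levels whose counting intervals overlap. In CYC065-treated cells it stood at 100.8 CPM in unsorted, 77.8 in 2N and 60.7 in 4N cells. The 3 drug-treated levels do not overlap each other and fall from unsorted to 2N to 4N cells. The log2 ratio of CYC065 to vehicle was 2.24 in unsorted cells (95% counting interval 2.15 to 2.33), 1.85 in 2N cells (1.76 to 1.94) and 1.42 in 4N cells (1.33 to 1.51).

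*Dusp4* encodes another nuclear phosphatase of ERK, p38 and JNK and lies on chromosome 8, from base 34807297 to 34819894 on the plus strand. It was expressed at 86.2, 77.0 and 79.2 CPM in unsorted, 2N and 4N vehicle-treated cells, of which the sorted pair overlap. In CYC065-treated cells it stood at 125.3, 153.2 and 135.8 CPM in the same order, above every vehicle library. Its log2 ratio was 0.54 in unsorted (0.49 to 0.59), 0.99 in 2N (0.94 to 1.05) and 0.78 in 4N cells (0.73 to 0.83). The 2N ratio sits at the 2-fold limit, and it lay past that limit, at 1.05 and 1.02, under scaling by library size only and without replicate 1.

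*Dusp6*, the cytoplasmic phosphatase specific for ERK, lies on chromosome 10, from base 99263231 to 99267489 on the plus strand. Its profile was the closest to that of *Dusp4*. Its vehicle levels were 77.7, 77.5 and 67.3 CPM in unsorted, 2N and 4N cells. Its CYC065 levels were 109.3, 145.0 and 108.5 CPM, with 2N cells above the other two, whose intervals overlap. The log2 ratios were 0.49 (0.44 to 0.55), 0.90 (0.85 to 0.96) and 0.69 (0.63 to 0.75). After centering each profile on its own mean, the root mean square distance between *Dusp4* and *Dusp6* over the 6 libraries was 0.11 on the log2 scale, the smallest of any pair among the 10 genes.

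*Dusp5*, the nuclear phosphatase specific for ERK, went the other way. It lies on chromosome 19, from base 53529109 to 53542431 on the plus strand. It was expressed at 42.5 CPM in unsorted, 85.5 in 2N and 64.4 in 4N vehicle-treated cells, and at 23.6, 49.0 and 31.9 CPM after CYC065. No neighbors in the order of its 6 levels overlap. Drug-treated 2N cells lay above vehicle-treated unsorted cells, so the treatments overlap although the drug-treated level was lower within each population. The log2 ratio was -0.85 in unsorted (-0.95 to -0.75), -0.80 in 2N (-0.87 to -0.74) and -1.01 in 4N cells (-1.09 to -0.94). In 4N cells the ratio came inside the 2-fold limit, at -0.94 and -0.99, under scaling by library size only and without replicate 2.

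Levels of different genes were compared per kilobase of exon, as CPM divided by the summed length of a gene's exons. In unsorted vehicle-treated cells, *Dusp4* made up 39.4% of the summed level of the 4 phosphatases, *Dusp6* 31.0%, *Dusp5* 21.5% and *Dusp1* 8.09%. In unsorted CYC065-treated cells the share of *Dusp1* was 25.2% and that of *Dusp5* 7.91%. The shares of *Dusp4* and *Dusp6* were 37.9% and 28.9%. In unsorted cells the 2 genes that exchanged places were thus *Dusp1* and *Dusp5*. In 2N cells *Dusp5* went from 36.8%, the largest share, to 13.6%, the smallest, and *Dusp1* from 6.95% to 16.1%. There *Dusp4* went from 29.9% to 38.4% and *Dusp6* from 26.3% to 31.8%. In 4N cells *Dusp5* went from 31.3% to 11.2% and *Dusp1* from 8.22% to 15.9%. The summed level was higher with CYC065 in each population, at 120.6 against 79.9 CPM per kilobase in unsorted cells.

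Among the Sprouty genes, *Spry1* had the largest ratio of all 10 genes in unsorted and in 4N cells. Its product blocks receptor signaling to RAS and RAF. The gene lies on chromosome 3, from base 37639947 to 37644598 on the plus strand. Vehicle-treated cells expressed 7.41 CPM in unsorted, 9.71 in 2N and 11.7 in 4N cells, and CYC065-treated cells 58.1, 34.7 and 33.8 CPM. The vehicle levels do not overlap, and of the drug-treated levels only 2N and 4N do. The log2 ratio was 2.97 in unsorted (2.82 to 3.12), 1.84 in 2N (1.70 to 1.98) and 1.53 in 4N cells (1.41 to 1.65). The lowest level of *Spry1* rested on 432 counts.

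*Spry2* and *Spry4* encode inhibitors of the same family. *Spry2* lies on chromosome 14, from base 105891947 to 105896819 on the minus strand. *Spry2*, with *Spry1*, was among the 2 least abundant genes by CPM in vehicle-treated cells and was the least abundant after CYC065, at 8.46, 10.2 and 9.76 CPM in unsorted, 2N and 4N vehicle-treated cells and 11.3, 17.1 and 14.4 CPM after CYC065. Its log2 ratios were 0.42 (0.24 to 0.59), 0.75 (0.60 to 0.90) and 0.56 (0.41 to 0.71). The unsorted CYC065 level overlaps the 2N vehicle level within counting error. *Spry4* was expressed at 45.8, 71.8 and 57.8 CPM in vehicle-treated and at 53.8, 74.4 and 50.8 CPM in CYC065-treated cells. Both 2N libraries of *Spry4* lie at the top of its order and overlap. Its ratio differed in sign among populations, at 0.23 in unsorted (0.15 to 0.31), 0.05 in 2N (-0.01 to 0.11) and -0.19 in 4N cells (-0.26 to -0.12).

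Per kilobase, *Spry4* was the leading Sprouty transcript in vehicle-treated cells, with 59.3% of the summed level of *Spry1*, *Spry2* and *Spry4* in unsorted, 64.8% in 2N and 58.3% in 4N cells. *Spry1* held 15.7%, 14.3% and 19.3%. After CYC065, *Spry1* held 54.5% in unsorted, 33.4% in 2N and 39.8% in 4N cells. *Spry1* was then the most abundant of the 3 in unsorted and 4N cells, and *Spry4*, at 43.7%, in 2N cells.

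*Spred1* encodes a membrane protein that recruits neurofibromin to switch RAS off, and the gene lies on chromosome 2, from base 117121374 to 117182279 on the plus strand. It was the most abundant of the 10 genes by CPM, at 159, 189 and 151 CPM in unsorted, 2N and 4N vehicle-treated cells and 171, 170 and 152 CPM after CYC065. Per kilobase it did not lead, since its exons sum to 6784 bases. The log2 ratios were 0.11 (0.07 to 0.15), -0.15 (-0.19 to -0.11) and 0.01 (-0.03 to 0.05), all small beside the spread of all genes in the plot of ratios by population.

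**Figure D2:**
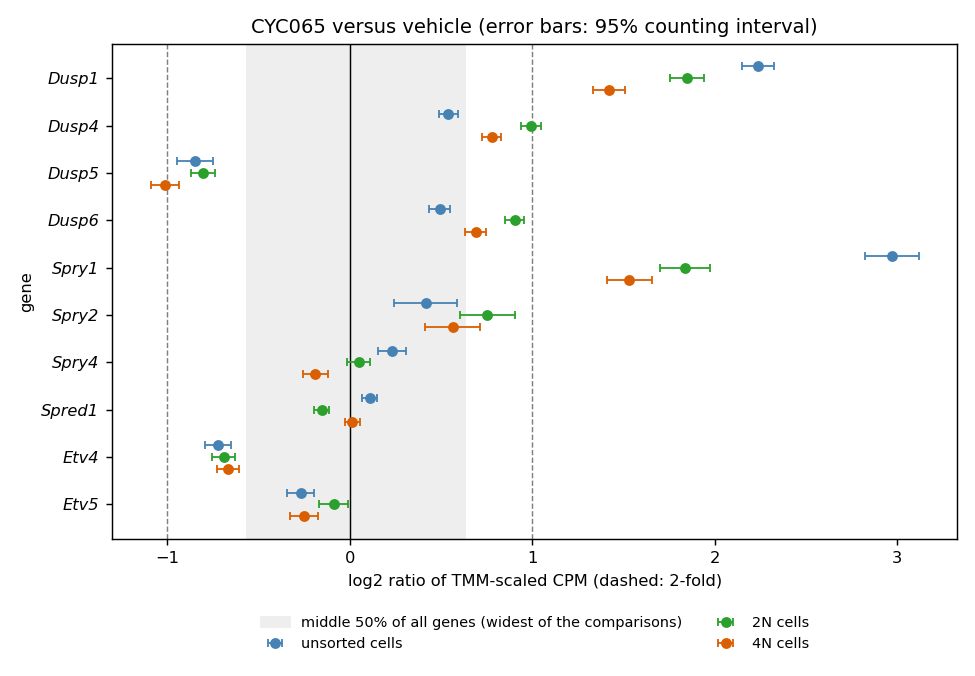
Log2 ratio of CYC065 to vehicle (horizontal axis) for each gene in unsorted, 2N and 4N cells. Points are ratios of 1 library to 1 library, error bars are 95% counting intervals and dashed lines mark 2-fold. The gray band covers the middle 50% of all genes, with its lowest and highest edges taken over the comparisons shown. *Spry1* and *Dusp1* lie between 1.42 and 2.97, *Dusp5* and *Etv4* lie between -1.01 and -0.67, and the other 6 genes lie within 2-fold.

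*Etv4* and *Etv5* encode activators of the PEA3 group of ETS factors. *Etv4* lies on chromosome 11, from base 101769742 to 101785371, and *Etv5* on chromosome 16, from base 22381309 to 22439719, both on the minus strand. *Etv4* was expressed at 76.1, 88.7 and 88.6 CPM in unsorted, 2N and 4N vehicle-treated cells and at 46.1, 55.0 and 55.8 CPM after CYC065. In each treatment the 2N and 4N levels overlap, and every CYC065 level lies below every vehicle level. Its log2 ratios were close to each other in the 3 populations, at -0.72 (-0.79 to -0.65), -0.69 (-0.76 to -0.63) and -0.67 (-0.73 to -0.61). *Etv5* was highest in the unsorted libraries, at 61.8 CPM with vehicle and 51.3 CPM with CYC065. Its sorted levels were 45.5 and 47.2 CPM in 2N and 4N vehicle-treated cells and 42.8 and 39.7 CPM in drug-treated cells. The log2 ratios of *Etv5* were -0.27 (-0.34 to -0.20), -0.09 (-0.17 to -0.01) and -0.25 (-0.32 to -0.17). *Etv5* had fractional counts in 17 of its 18 columns, so RSEM divided some of its reads with other transcripts and its intervals do not cover that division, while the other 9 genes had whole counts.

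Per kilobase, *Etv4* held 61.9% of the sum of the pair in unsorted, 72.1% in 2N and 71.3% in 4N vehicle-treated cells. After CYC065 it held 54.3%, 62.9% and 65.0%. The summed level of the pair was lower with CYC065, at 27.4 against 39.6 CPM per kilobase in unsorted cells. The sum of *Etv4* and *Etv5* and that of *Dusp1*, *Dusp4*, *Dusp5* and *Dusp6* thus moved in opposite directions. Neither sum covers every gene of its family, and other phosphatases are given below. The ETS gene *Etv1*, listed with the other ERK outputs, was chosen after its values were seen. Its log2 ratios were 0.83 in unsorted, 1.58 in 2N and 1.57 in 4N cells.

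The ratio of CYC065 to vehicle differed between unsorted and sorted cells for some of the genes. Subtracting the mean of the log2 ratios in 2N and 4N cells from that in unsorted cells gave 1.29 for *Spry1* (1.11 to 1.46) and 0.60 for *Dusp1* (0.49 to 0.71). It gave -0.35 for *Dusp4* (-0.41 to -0.28) and -0.30 for *Dusp6* (-0.37 to -0.24). *Spry1* and *Dusp1* thus had larger ratios in unsorted cells, and *Dusp4* and *Dusp6* in sorted cells. For *Etv4* the difference was -0.04 (-0.13 to 0.04) and for *Dusp5* 0.06 (-0.05 to 0.17), intervals that include 0. Sorted cells were stained with a DNA dye and passed through a sorter, and effects of that handling and of the population cannot be told apart.

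The comparison of 4N with 2N cells asks how cells sorted by DNA content differ within 1 treatment. DNA content does not separate polyploid cells from dividing 2N cells that have copied their DNA. Ploidy and cell cycle phase therefore cannot be told apart here. None of the 10 genes lay beyond 2-fold in either treatment, where 2.69% of all genes did in vehicle-treated and 3.56% in CYC065-treated cells. In vehicle-treated cells the log2 ratios ran from -0.41 for *Dusp5* to 0.27 for *Spry1*, with a median of -0.03. The counting interval lay below 0 for 4 genes and above 0 for 1, where it did so for 26.8% and 26.9% of all genes. Those below were *Dusp5*, *Dusp6*, *Spry4* and *Spred1*. In CYC065-treated cells the ratios ran from -0.62 for *Dusp5* (-0.70 to -0.54) to 0.02 for *Etv4* (-0.05 to 0.09), with a median of -0.21 beside 0.00 for all genes. The interval lay below 0 for 8 of the 10 genes, all but *Spry1* and *Etv4*, and for 27.6% of all genes. An interval narrows as the count of a gene rises, so these shares also depend on expression. *Spry4* was at -0.55 (-0.62 to -0.48), *Dusp6* at -0.42 (-0.46 to -0.37) and *Dusp1* at -0.36 (-0.42 to -0.30).

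**Figure D3:**
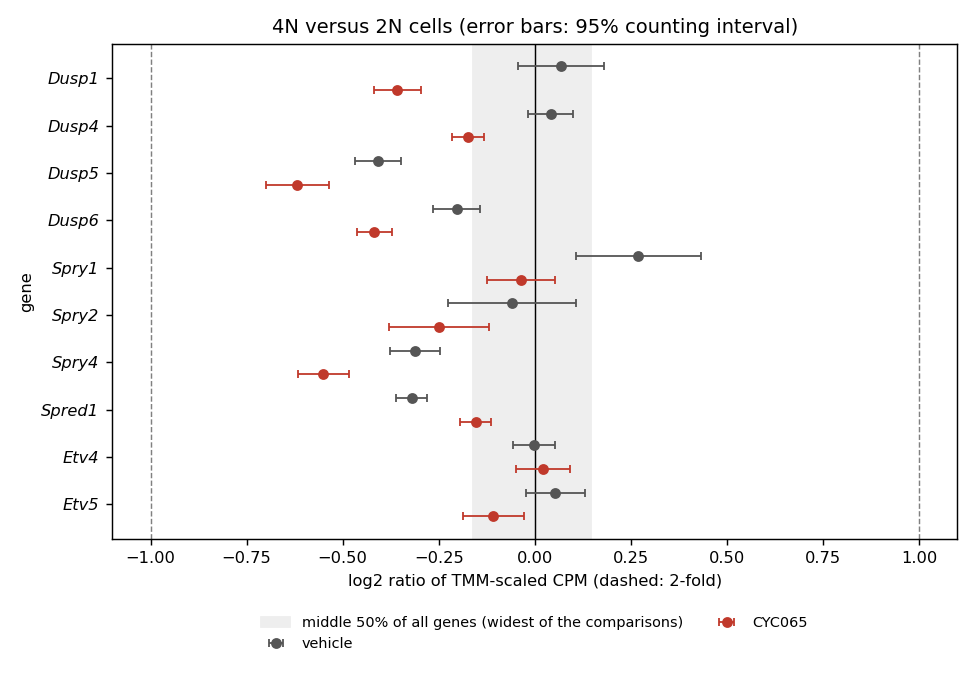
Log2 ratio of 4N to 2N cells (horizontal axis) for each gene, in vehicle-treated (gray) and CYC065-treated (red) cells. Points are ratios of 1 library to 1 library, with 95% counting intervals and dashed lines at 2-fold. A band covers the middle 50% of all genes, with its lowest and highest edges taken over the comparisons shown. The CYC065 points lie left of the vehicle points for 8 genes, and *Dusp5* has the lowest point in both treatments.

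The difference of the 4N/2N ratios, CYC065 minus vehicle, was below 0 for 8 of the 10 genes and for 49.1% of all genes, with a median of -0.21 against 0.01 for all genes. It was largest for *Dusp1*, at -0.43 (-0.55 to -0.30), and for *Spry1*, at -0.31 (-0.49 to -0.12). *Dusp4*, *Dusp5* and *Dusp6* each had a difference of -0.21 or -0.22 with intervals below 0. *Spred1* had a difference above 0, at 0.17 (0.11 to 0.22), and that of *Etv4* was 0.02 (-0.06 to 0.11). None of the 10 genes passed 2-fold in this difference, where 7.08% of all genes did. Within a treatment, the summed level of the mitotic genes was higher in 4N than in 2N cells (1219 against 726 CPM with vehicle, 688 against 272 with CYC065). Mitotic transcripts thus moved with the sort, and their part in the differences of the 10 genes was not tested.

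Set against unsorted cells, the mean of the sorted populations was higher for *Dusp5* in both treatments, at 0.80 in vehicle-treated (0.74 to 0.87) and 0.74 in CYC065-treated cells (0.65 to 0.83). *Etv5* was lower in sorted cells in both treatments, at -0.42 (-0.48 to -0.36) and -0.31 (-0.38 to -0.25). *Spry1* changed sign between the treatments, from 0.52 with vehicle (0.37 to 0.68) to -0.76 with CYC065 (-0.83 to -0.69). *Dusp1* was at 0.05 with vehicle (-0.05 to 0.15) and at -0.55 with CYC065 (-0.60 to -0.50). None of the 10 genes passed 2-fold, where 10.9% of all genes did with vehicle and 6.75% with CYC065. Of all genes past 2-fold with CYC065, 45.9% were higher in sorted cells, and 67.5% under scaling by library size only, which moves the median of all genes in this comparison from 0.02 to 0.22. *Spred1*, at -0.09, took the value 0.10 under that scaling.

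Pairs of the 10 genes were also ordered by the distance between their centered log2 profiles over the 6 libraries. After *Dusp4* and *Dusp6*, the closest pairs were *Dusp6* and *Spry2* at 0.17, *Dusp4* and *Spry2* at 0.19 and *Spry4* and *Spred1* at 0.20. *Dusp1* and *Spry1* were 0.25 apart, and *Dusp5* and *Etv4* 0.35. The closest profiles among 9271 other genes with at least 300 counts in every library were, for *Dusp1*, *Fam117a* at 0.09, *Mmp11* at 0.11 and *Ghr* at 0.12. For *Dusp5* they were *Gprc5a* at 0.12, *Klf16* at 0.16 and *Ccdc86* at 0.17. For *Spry1* they were *Enpp5* at 0.23, *Slit3* and *Csad*, both at 0.24. All of these distances rest on 6 libraries that share their scaling.

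Other genes of the pathway varied in both directions, and their values below are the log2 ratio of CYC065 to vehicle averaged over the 3 populations. Of all genes, 12.6% were higher and 12.6% lower in unsorted, 16.2% and 11.4% in 2N, and 15.5% and 10.1% in 4N cells. The drug counts of every list below stand beside these shares. Of 7 other dual-specificity phosphatases past the filter, 0 were higher and 1 lower in unsorted cells, 0 and 0 in 2N, and 1 and 0 in 4N cells. *Dusp3*, *Dusp8* and *Dusp14* had averages of -0.79, -0.74 and -0.70, and *Dusp2*, present at few counts, 0.62. Of 12 other inhibitors of receptor or RAS signaling, 2 were higher and 0 lower in each population. *Il17rd*, an inhibitor of FGF receptors also known as Sef, averaged 1.41 and lay past 2-fold in all 3. *Socs3*, a feedback inhibitor of cytokine receptors, averaged 1.15 but lay within 2-fold in unsorted cells, at 0.54. There the other gene past 2-fold was *Lrig1*, at 1.03, with -0.20 in 2N and -0.28 in 4N cells. *Rasal2* averaged -0.57 and *Dab2ip* 0.52, both genes of RAS GTPase-activating proteins.

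The other output genes of ERK were divided as well. In unsorted cells 2 of 16 were higher and 5 lower, where 12.6% of all genes were higher and 12.6% lower. In 2N cells 6 of 17 were higher and 8 lower, against 16.2% and 11.4% of all genes. In 4N cells 3 were higher and 6 lower, against 15.5% and 10.1%. *Areg*, a ligand of EGFR, averaged -2.19, *Plaur*, the urokinase receptor, -1.86, and *Fosl1*, a component of AP-1, -1.73. *Areg* rests on few counts, with 10 in the unsorted and 39 in the 4N CYC065 library. *Vgf*, a secreted neuropeptide precursor, averaged 1.92 and was at 0.65 CPM in unsorted vehicle-treated cells, so it rests on few counts. *Egr1*, an early response gene induced by ERK, was chosen after its values were seen, and its log2 ratio was 1.55 in unsorted, 1.25 in 2N and 0.93 in 4N cells. Comparing 4N with 2N CYC065-treated cells, 0 of 17 of these genes were higher and 4 lower, where 1.48% of all genes were higher and 2.08% lower. The 4 were *Egr1* at -1.18, *Egr3* at -1.30, *Areg* at -1.09 and *Vgf* at -1.55. In vehicle-treated cells the same ratios were -0.86, -0.93, -0.06 and 0.32.

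**Figure D4:**
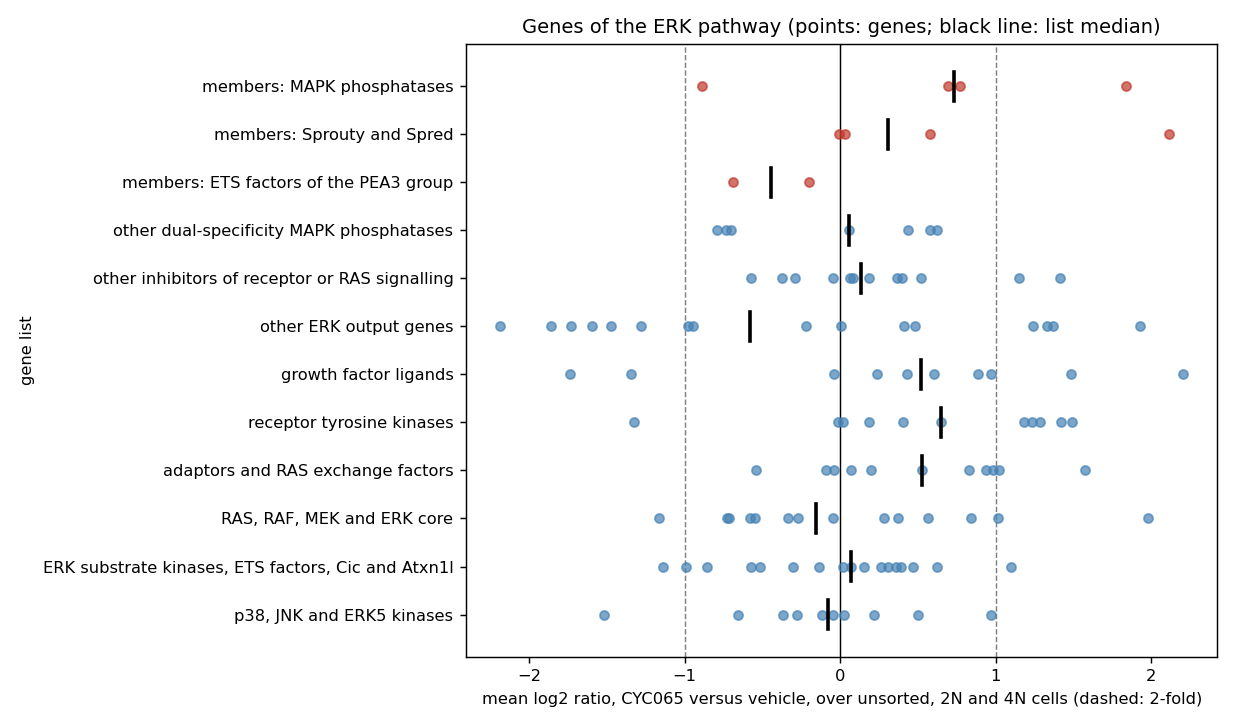
Log2 ratio of CYC065 to vehicle averaged over unsorted, 2N and 4N cells (horizontal axis) for genes of the ERK pathway past the count filter, by list. Each point is a gene, with the 10 genes described in red, and black lines mark list medians. The phosphatases span -0.89 to 1.83 and the Sprouty and Spred genes -0.01 to 2.11, and the other ERK output genes reach from -2.19 to 1.92.

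Upstream of the feedback genes, 10 ligands passed the filter, of which 3 were higher and 3 lower in unsorted, 3 and 2 in 2N, and 2 and 2 in 4N cells. *Hgf*, the ligand of MET, averaged 2.21 and *Fgf10* 1.48, while *Btc*, a ligand of EGFR, averaged -1.74 and *Pdgfa* -1.34. Of 11 receptor tyrosine kinases, 6 were higher and 0 lower in unsorted, 3 and 1 in 2N, and 4 and 1 in 4N cells. The shares of all genes were 12.6% higher and 12.6% lower, 16.2% and 11.4%, and 15.5% and 10.1% in the same order. *Pdgfrb* averaged 1.49, *Pdgfra* 1.42 and *Insr* 1.28, and *Axl* averaged -1.32. *Pdgfra* and *Pdgfrb* are also among the mesenchymal markers, whose summed level was 12092, 11069 and 10389 CPM in unsorted, 2N and 4N vehicle-treated and 17434, 14015 and 11621 CPM in CYC065-treated cells. Of the 5 markers, 4 had a ratio of CYC065 to vehicle above 0 in each population. *Vim* went the other way, with log2 ratios of -0.67 in unsorted, -0.83 in 2N and -0.92 in 4N cells. The part of these markers in the levels of the feedback genes was not tested.

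Of 11 adaptors and exchange factors, 3 were higher in unsorted, 1 in 2N and 3 in 4N cells, with 0 lower. *Gab2* averaged 1.57, *Frs3* 1.02, *Gab1* 0.98 and *Sos2* 0.94. Of 14 genes of the RAS, RAF, MEK and ERK core, 2 were higher and 1 lower in unsorted and in 2N cells, and 1 and 1 in 4N cells. *Map3k8*, a kinase that activates MEK, averaged 1.98, *Rras* 1.01 and *Ksr1* 0.84, and *Hras* averaged -1.17. *Map3k8* rests on few counts, with 38 in the 2N and 42 in the 4N vehicle library.

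A list of 17 genes held kinases that ERK phosphorylates, ETS factors, the repressor *Cic* and its partner *Atxn1l*. Of these, 0 were higher and 2 lower in unsorted, 1 and 1 in 2N, and 1 and 2 in 4N cells. *Erf*, an ETS repressor that ERK exports from the nucleus, averaged -1.14, *Mknk2* 1.10, *Rps6ka4* -0.99 and *Rps6ka3* -0.86. Among kinases of the p38 and JNK branches and the ERK5 gene *Mapk7*, 0 of 10 were higher and 1 lower in unsorted, 1 and 1 of 11 in 2N, and 1 and 1 of 10 in 4N cells. *Mapk11* averaged -1.52, *Map2k6* 0.97, *Map2k3* -0.66 and *Mapk9* 0.50.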

How the data were processed

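RNA was depleted of ribosomal RNA and made into stranded libraries for paired-end sequencing. Per the labels, the authors used bcl2fastq 2.17, Cutadapt 1.18, STAR 2.7.0f and RSEM 1.3.1 with mm10 and GENCODE M21. The deposited values are RSEM expected counts per gene, neither normalized nor filtered, and 9.66% of genes have a fractional count. The strand setting of the counting is not given in the sources used here. The 18 columns hold 3 replicates of 6 conditions. Replicates were compared by chi-square over genes with a mean of at least 10 counts and summed. Same-numbered replicates deviated with correlations of -0.0375 to 0.0431, so the numbers do not pair the samples.

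Libraries were scaled with TMM (edgeR 4.0.16, R 4.3.3). The summed counts were rounded to whole numbers, and the log2 ratios used a prior count of 0.5. A gene entered a comparison, of which there were 8, when any library compared held 30 or more of its counts. Intervals are exact binomial for ratios of 2 libraries and by the delta method otherwise, at 95%, and cover counting error only. The scripts were tested on simulated data. All 55450 gene IDs matched GENCODE M21. Lists other than the 10 genes were named by up to 4 genes with the largest absolute ratio, averaged over the 3 populations, and like profiles were sought for the 3 genes of largest range. One result is not reported here. The members and lists were chosen with earlier results of these data known.

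Alternatives were DESeq2 1.42.0 size factors, library size only, separate TMM for sorted and unsorted libraries, a prior count of 2, no filter, a summed count of at least 100, intervals wholly beyond 2-fold, leaving out each replicate, an assumed coefficient of variation of 0.2 between cultures, and tests on the 3 columns by edgeR, with and without a replicate block, and by DESeq2, at an adjusted P of 0.05. Python 3.11.15 with pandas 2.3.3 and SciPy 1.17.1 was used.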

Additional observations from a re-analysis of the deposited data

Results flagged for a closer look

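Several of the 10 genes took opposite signs in conditions under the same contrast. Each condition is 1 library, and these differences were not tested.

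*Spry1* differed between sorted and unsorted cells by 0.52 on the log2 scale in vehicle-treated cells and by -0.76 in CYC065-treated cells. *Dusp4* gave -0.14 and 0.20, and *Dusp6* -0.11 and 0.20, in the same 2 treatments. *Spred1* gave 0.086 and -0.093. The ratio of CYC065 to vehicle for *Spry4* was 0.23 in unsorted and -0.19 in 4N cells. That of *Spred1* was 0.11 in unsorted and -0.15 in 2N cells.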

How the results depend on the processing

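With 1 library per condition, the spread between cultures is unknown and bounds every value above, and the counts of *Spry1* and *Spry2* carry the widest counting intervals. Of 540 values of the 10 genes under alternatives, 0 were reversed among those beyond 2-fold and 30 moved by more than counting error. The largest move, 0.19 on the log2 scale, came under library size only. That scaling moves the median of all genes to -0.12, 0.07 and 0.11 in the drug comparison of unsorted, 2N and 4N cells. Values near 0 changed sign for *Spred1* and *Etv4*. The number of the 10 genes beyond 2-fold went from 2 to 3 in 2N cells, by *Dusp4*, and from 3 to 2 in 4N cells, by *Dusp5*, under some alternatives, and was the same in the other 6 comparisons. The number of all genes beyond 2-fold was 3552 in unsorted, 3899 in 2N and 3634 in 4N cells, 359 and 505 for 4N against 2N with vehicle and CYC065, 1026 for the difference of these, and 1511 and 971 for sorted against unsorted cells. In that order it was 10302, 11606, 10868, 5463, 7045, 9585, 6493 and 5931 with no filter, where low counts pass. For the last 5 comparisons, it was 120, 218, 306, 901 and 487 with a summed count of at least 100, and 73, 162, 109, 839 and 404 with the interval wholly beyond 2-fold. An assumed coefficient of variation of 0.2 between cultures gave 22, 42 and 16 for the 4N against 2N comparisons and their difference, and 487 for sorted against unsorted CYC065-treated cells. For the difference, DESeq2 on the 3 columns gave 343, and edgeR gave 531 with a replicate block and 542 with no replicate block. With and without the block, the number of the 10 genes called was the same in each comparison.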
